A study of Mus musculus with 4 samples.

Results

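The mitochondrial ribosomal protein genes are the nuclear genes that encode the protein part of the ribosome inside mitochondria. They were taken as the rows of the deposited table whose Entrez gene ID belongs to a mouse protein-coding gene with a symbol that starts with Mrpl or Mrps, with pseudogenes left out. This gave 78 of the 27179 genes in the table, 49 with Mrpl symbols, named for the large subunit, and 29 with Mrps symbols, named for the small subunit. The rule used no measured value.

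The mitochondrial ribosome translates only the messages of the mitochondrial genome, which encode core subunits of the respiratory chain and of ATP synthase. All of its proteins are made in the cytosol from nuclear genes and imported, whereas its ribosomal RNAs are transcribed inside the organelle. Some of these proteins descend from the bacterial ribosome and the others were added during the evolution of mitochondria. AML cells with stem cell properties are known to lean on oxidative phosphorylation, so mitochondrial translation has been studied in this leukemia.

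The cells were leukemia stem cells (LSCs) from the bone marrow of a mouse model of acute myeloid leukemia (AML) on the C57BL/6 strain, sorted as YFP+/Mac-1+/c-Kit+. Of the 4 RNA-seq libraries, 2 were labelled wild type and 2 B7-H4-null (null for short), with no treatment, age, oncogene or time named. B7-H4, encoded by Vtcn1, is an inhibitory ligand of the B7 family. The labels do not say whether the cells, the host or both lacked it, nor whether replicates were separate animals. The p-values therefore rest on the spread among these libraries alone, and that spread may be technical.

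Each library had 9419425 to 10814448 reads behind its values. Vtcn1 had 0 reads in wild type and 2 over both B7-H4-null libraries, too few to check the labels. Of the sort markers, Kit stood at 7.19 to 24 RPKM and Itgam and Itgb2, the Mac-1 chains, at 59.9 RPKM or more in every library. The 3 summed to 350.7 and 307 RPKM in wild type and to 217 and 215.4 RPKM in B7-H4-null. Of them, 2 lay lower in the null libraries without overlap, against 28.0% of all tested genes. B cell markers summed to 0.966 RPKM or less in every library. Markers of maturing neutrophils summed to 23340 and 13700 RPKM in wild type and to 6733 and 8407 RPKM in B7-H4-null. All 9 lay lower in the null libraries without overlap, against 28.0% of all tested genes. Of the 6 markers of myeloid progenitors, 4 lay higher in the null libraries (66.7%) and 1 lower (16.7%) without overlap. Over all tested genes these shares were 16.0% and 28.0%. Among these markers, with wild-type values first, Flt3 had 8.9 and 23 against 99.3 and 103 RPKM, and Cd34 27.7 and 42.7 against 73.2 and 70.1 RPKM. The lower one, Elane, had 2810 and 3340 against 1300 and 2750 RPKM. The sum of all 6 overlapped between genotypes, at 8043 and 9001 against 7327 and 11620 RPKM. In bulk RNA, fewer cells of a type and less RNA per cell cannot be told apart. The 5 stress genes Fos, Jun, Egr1, Atf3 and Hspa1a summed to 866.5 and 1445 RPKM in wild type and to 6106 and 2637 RPKM in B7-H4-null, with B7-H4-null replicate 1 the highest. The part of these gene groups in the results that follow was not tested.

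All 78 mitochondrial ribosomal protein genes were expressed, and all passed the filter of 1 RPKM in at least 2 libraries. RPKM counts reads scaled to the gene's counted length and to the library's total, so comparisons between genes rest on those lengths. Recovered from the values, the counted lengths of members ran from 407 to 6712 bases, with a median of 1054. Where the expressed transcript is shorter than the counted length, RPKM is too low, and this was not checked. Mean levels over the 4 libraries ran from 2.42 to 314 RPKM, a 130-fold range, with a median of 32.8 RPKM against 13.3 RPKM for all 12107 genes that passed the filter. Most members lay close together, 49 of the 78 within 2-fold of the median. Relative levels among the members were alike between replicates. The correlations that follow do not show a shift in level that the members share. Pearson's r of log2 values across the 78 genes was 0.969 for the wild-type pair and 0.973 for the null pair. Between the genotype means it was 0.976. For the same pairs, all tested genes had 0.957 and 0.948 and oxidative phosphorylation genes 0.988 and 0.99. Genes are not independent replicates, and the libraries share gene lengths and annotation, so these correlations only describe the libraries.

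Mrpl33 led the large subunit by a wide margin. It encodes a small protein with a bacterial counterpart and lies on chromosome 5 (31613951 to 31622644, GRCm38). Its level was 275 and 299 RPKM in the wild-type and 315 and 366 RPKM in the null libraries. Its log2 difference of 0.24 ± 0.259 (SE, limma adjusted p = 0.737) became −0.02 after quantile normalization. This 1 gene made up 13.6% to 15.9% of the summed RPKM of the large subunit. The next was Mrpl20, a ribosomal RNA-binding protein that in bacteria acts early in assembly, at 95.5 and 135 RPKM in the wild-type and 91.3 and 128 RPKM in the null libraries. Mrpl12, the protein of the flexible stalk that contacts translation factors, had 87.7 and 105 RPKM in the wild-type and 79.8 and 163 RPKM in the null libraries. Mrpl30 had 89.4 and 104 RPKM against 92.6 and 123 RPKM. Of these 4 genes, only Mrpl33 had both B7-H4-null libraries above both wild-type libraries.

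At the low end of the large subunit stood Mrpl1, whose bacterial relative forms the movable stalk beside the tRNA exit site, at 4.59 and 5.41 RPKM in the wild-type and 4.81 and 5.45 RPKM in the null libraries. Mrpl35 had 8.03 and 10.5 RPKM in the wild-type and 7.36 and 10.5 RPKM in the null libraries. Mrpl41 had 10.8 and 11.7 RPKM in the wild-type and 7.76 and 11.2 RPKM in the null libraries. The genotypes overlapped for all 3. Counted lengths were 4170 bases for Mrpl1, 3695 for Mrpl35 and 2423 for Mrpl41, against 466 for Mrpl33, so part of the gap in level may reflect length.

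The small subunit had no gene that stood as far above the rest. Its highest was Mrps18c, 1 of 3 mammalian relatives of bacterial S18, at 80.5 and 116 RPKM in the wild-type and 74.4 and 92.5 RPKM in the null libraries. Mrps26 followed at 73.1 and 78.7 RPKM in the wild-type and 66.3 and 86.2 RPKM in the null libraries, then Mrps21 at 76.5 and 57.4 RPKM against 47.5 and 72.9 RPKM. Mrps9, which in bacteria reaches toward the tRNA in the peptidyl site, had 52.5 and 75.2 RPKM in the wild-type and 57.3 and 64.8 RPKM in the null libraries. The genotypes overlapped for all 4 of these genes as well. The other S18 relatives were lower, Mrps18a at 38.1 and 42.4 RPKM in the wild-type and 38.0 and 46.6 RPKM in the null libraries, and Mrps18b at 13.6 and 14.5 RPKM against 14.7 and 25.5 RPKM.

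Mrps36 was the lowest member, at 2.62 and 1.83 RPKM in the wild-type and 2.52 and 2.71 RPKM in the null libraries. That is 19, 13, 17 and 21 reads, so its values carry more counting error than those of any other member. Its protein is now known as a part of the 2-oxoglutarate dehydrogenase complex and not of the ribosome, in spite of its symbol. Mrps33 was the next lowest of the small subunit, at 6.35 and 7.92 RPKM in the wild-type and 6.84 and 7.1 RPKM in the null libraries. Reads per member and library otherwise reached 1846, with a median of 391, and 5 members fell under 100 reads in a library.

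**Figure D1:**
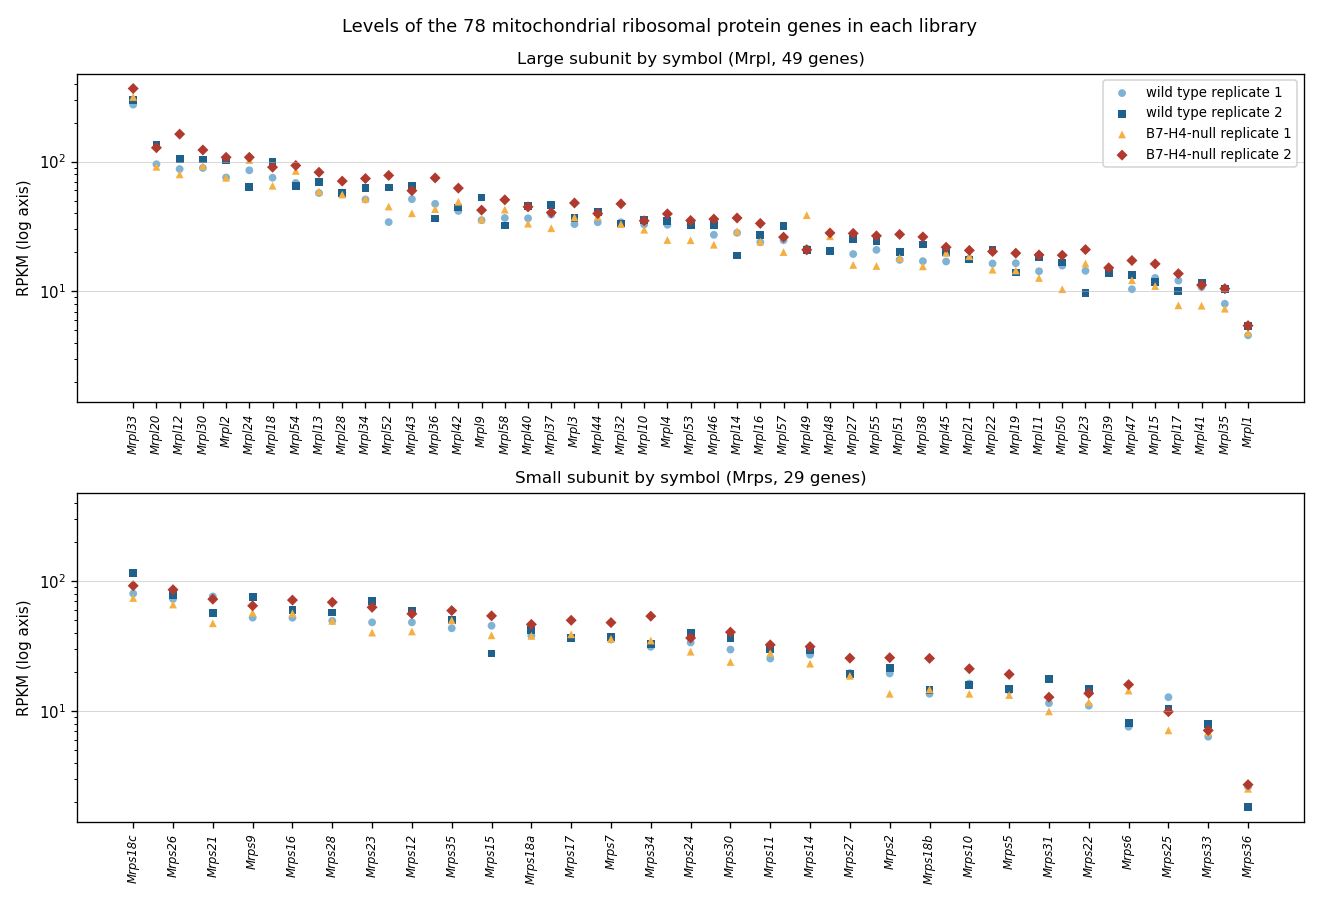
RPKM (log axis) of each mitochondrial ribosomal protein gene in the 4 libraries, ordered by mean level, with large subunit genes above and small subunit genes under them. Mrpl33 stands alone at the top at 275 to 366 RPKM, Mrps36 at the bottom at 1.83 to 2.71 RPKM, and the red diamonds of B7-H4-null replicate 2 are the highest point for 55 of the 78 genes.

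The start regions of these genes were searched because genes of this family are widely held to share promoter elements for the transcription factors NRF1, GABP of the ETS family, and YY1. RefSeq start windows on GRCm38.p6 were at hand for 69 of the 78 members, and each runs from 250 bases before to 50 bases after a transcript start. The letters searched on both strands were CCGGAAGT for ETS, AAGATGGCG for YY1 and GCGCATGCG for NRF1. The first was in 12 of the 69 members (17.4%, against 10% of the 8882 tested genes with a window), the second in 8 (11.6% against 3.96%) and the third in 7 (10.1% against 4.45%). At least 1 of them was present in 26 members (37.7%), against 17.3% of all tested genes with a window, 29.3% of cytosolic ribosomal protein genes and 30.6% of oxidative phosphorylation genes. Of the 31 matches, 20 began within 50 bases of the start. A palindromic NRF1 site, as in Mrpl9, Mrpl32 and Mrpl39, is counted on each strand, so distinct sites are fewer than matches. A match is a description of letters, not evidence that a factor binds there.

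Stretches of 150 bases around 4 starts are shown from 5′ to 3′ on the gene's own strand, with matches in capitals. Mrpl33 is shown as the member with the highest level, Mrps27 because it holds both ETS and YY1 letters, Mrpl32 because it holds 3 NRF1 matches, and Mrps6 as the member with the smallest p between genotypes. Mrpl32 and Mrps27 were chosen for their matches after these had been counted. The Mrpl33 stretch is chr5:31613831-31613980 on the plus strand, Mrps27 is chr13:99344666-99344815 on the plus strand, Mrpl32 is chr13:14613008-14613157 on the minus strand and Mrps6 is chr16:92058216-92058365 on the plus strand, all on GRCm38.p6.
Mrpl33: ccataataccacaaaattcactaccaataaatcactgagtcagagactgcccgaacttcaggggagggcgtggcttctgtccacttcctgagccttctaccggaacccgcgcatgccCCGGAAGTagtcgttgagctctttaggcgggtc
Mrps27: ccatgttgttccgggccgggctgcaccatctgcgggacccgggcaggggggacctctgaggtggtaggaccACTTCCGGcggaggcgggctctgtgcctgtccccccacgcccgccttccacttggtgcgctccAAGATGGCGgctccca
Mrpl32: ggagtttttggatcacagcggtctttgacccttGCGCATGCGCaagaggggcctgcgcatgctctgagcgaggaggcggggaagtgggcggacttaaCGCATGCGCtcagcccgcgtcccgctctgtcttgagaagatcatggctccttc
Mrps6: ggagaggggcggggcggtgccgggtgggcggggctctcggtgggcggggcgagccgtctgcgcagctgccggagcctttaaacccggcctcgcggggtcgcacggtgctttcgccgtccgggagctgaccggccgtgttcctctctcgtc

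In Mrpl33 the ETS match begins 3 bases before the start. Mrps27 has its ETS match, on the opposite strand, 49 bases before the start and its YY1 match 14 bases after it. In Mrpl32 the NRF1 matches begin 87, 86 and 23 bases before the start, and the first pair is a single palindromic site matched on both strands. None of the 3 motifs was found in the Mrps6 window. Members can also share their start region with another gene. By the outermost starts in GENCODE, 33 of the 78 have a protein-coding gene on the opposite strand that starts within 1000 bases. Mrpl46 and Mrps11 count each other. The share over all tested genes was not counted, so this only describes the members. Mrpl36 and Ndufs6, a subunit of respiratory complex I, start 29 bases apart, and Mrpl49 and Fau, a cytosolic ribosomal protein, 59 bases apart. Mrpl32 and the proteasome gene Psma2 start 75 bases apart, and Mrps27 and Ptcd2 81 bases apart. These pairs were picked after the distances were seen.

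No mitochondrial ribosomal protein gene differed between B7-H4-null and wild-type LSCs past the test, a limma fit over all 12107 genes with Benjamini-Hochberg adjustment at 0.05. Of all tested genes, 5 were called higher (0.0413%) and 7 lower (0.0578%). The smallest adjusted p of a member was 0.293 (limma, Mrps6). At an unadjusted p under 0.05, 1 member was higher and 0 were lower, against 5.05% of all tested genes higher and 7.20% lower. Limma's voom on the recovered reads also called 0 members, with 1 at an unadjusted p under 0.05. An exact permutation test of 2 against 2 libraries cannot give a two-sided p below 0.333.

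Differences of the members were small and centred just above 0. The log2 difference, B7-H4-null minus wild type on log2(RPKM + 1), was above 0 for 45 members and below 0 for 33, with a median of 0.09, against 5022 above, 7085 below and a median of −0.09 for all tested genes. Both B7-H4-null libraries lay above both wild-type libraries for 16 members (20.5%, against 16.0% of all tested genes). They lay below them for 1 member, Mrps25 (1.28%, against 28.0% of all tested genes). These counts depend on the scaling: after median-ratio scaling of the libraries 33 members lay above and 1 below, against 22% and 22.3% of all tested genes, and the median of the members was 0.19 against 0.01. After quantile normalization these counts were 25 and 1 (32.1% and 1.28%), against 19.1% and 25.5% of all tested genes. The medians were then 0.12 for the members against −0.04 for all. The sign of the members' median also rests on a single library. Leaving out null replicate 2 gave −0.11 for the 78 members, against −0.14 for all tested genes. Leaving out null replicate 1 gave 0.29 for the members, against −0.03.

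**Figure D2:**
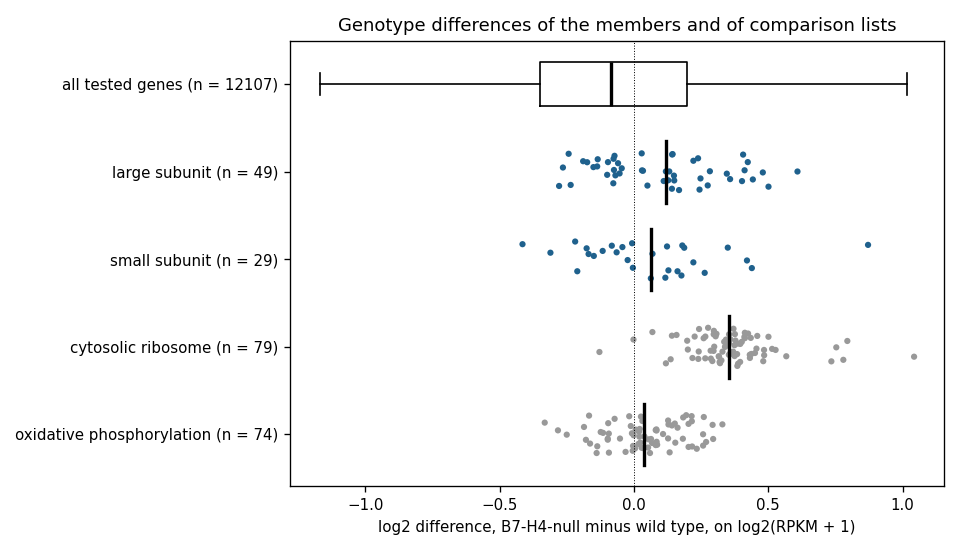
Log2 differences on log2(RPKM + 1), B7-H4-null minus wild type, for all tested genes (box: quartiles, whiskers: 1.5 times the box) and, as 1 point per gene with a bar at the median, for the large and small subunit and for 2 comparison lists. Medians were 0.12 for the large and 0.06 for the small subunit, 0.35 for the cytosolic ribosome and 0.04 for oxidative phosphorylation, against −0.09 for all tested genes.

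Mrps6 had the largest difference of any member. It encodes a small subunit protein whose bacterial relative sits on the platform next to S18, and it lies on chromosome 16 (92058336 to 92112227, GRCm38). The wild-type libraries had 7.58 and 8.13 RPKM (60 and 63 reads), and the null libraries 14.4 and 16.0 RPKM (106 and 135 reads). Both null libraries were thus well above both wild-type libraries, and replicates of a genotype lay close together. The means were 7.86 ± 0.387 and 15.2 ± 1.12 RPKM (SD, n = 2), 1.94-fold higher in the null libraries. The log2 difference of 0.87 ± 0.24 (SE) did not pass the test (limma adjusted p = 0.293). Leaving out any 1 library gave log2 differences of 0.80 to 0.94. The counted length of Mrps6 was 780 bases, against 1533 annotated exon bases, so shared bases can lie outside what was counted. On the same strand Mrps6 shares 305 exon bases (19.9%) with the gene model Gm49711. It also shares 159 exon bases with Slc5a3, a myo-inositol transporter gene on that strand, which was low, at 1.33 and 0.24 RPKM in the wild-type and 5.54 and 0.517 RPKM in the null libraries.

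In the large subunit the smallest p values in the higher direction belonged to Mrpl23, Mrpl24, Mrpl48 and Mrpl58. Mrpl23, whose bacterial relative lies at the rim of the peptide exit tunnel, had 14.4 and 9.69 RPKM in the wild-type and 16.4 and 21.0 RPKM in the null libraries. Its means were 12 ± 3.33 and 18.7 ± 3.22 RPKM, a log2 difference of 0.61 ± 0.29 (SE, limma adjusted p = 0.463). Mrpl24, a neighbour of that exit and an early assembly protein in bacteria, had 85.8 and 64.2 RPKM in the wild-type and 103 and 108 RPKM in the null libraries. The null pair lay above the wild-type pair, whose own values were far apart. Mrpl24 had a log2 difference of 0.50 ± 0.265 (SE, limma adjusted p = 0.503).

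Mrpl48, which has no bacterial counterpart, had replicates close together, at 20.5 RPKM in both wild-type libraries and 26.6 and 28.2 RPKM in the null pair. This gave 1.34-fold higher means and a log2 difference of 0.40 ± 0.235 (SE, limma adjusted p = 0.552). Mrpl58, a peptidyl-tRNA hydrolase that became part of the large subunit and is also known as Ict1, had 36.8 and 32.2 RPKM in the wild-type and 42.7 and 50.8 RPKM in the null libraries (log2 difference 0.42, limma adjusted p = 0.556). Neither gene's libraries overlapped between genotypes, and neither difference passed.

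Of the small subunit genes after Mrps6, Mrps34 had 31.3 and 33.1 RPKM in the wild-type and 35 and 53.9 RPKM in the null libraries (log2 difference 0.42, limma adjusted p = 0.603). Mrps18b had a log2 difference of 0.44 (limma adjusted p = 0.614). For both, B7-H4-null replicate 1 lay just above wild type and most of the difference came from replicate 2. Mrps15, a ribosomal RNA-binding protein, had 45.5 and 27.8 RPKM in the wild-type and 38.4 and 54.2 RPKM in the null libraries, so its genotypes overlapped (log2 difference 0.35, limma adjusted p = 0.707).

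In the lower direction Mrps25 came first, a small subunit protein with no bacterial counterpart (chromosome 6, 92169512 to 92184023, GRCm38). Its level was 12.8 and 10.4 RPKM in the wild-type and 7.11 and 9.89 RPKM in the null libraries. The means were 11.6 ± 1.72 and 8.5 ± 1.97 RPKM (SD, n = 2), 0.734 times the wild-type level, a log2 difference of −0.41 ± 0.274 (SE, limma adjusted p = 0.593). Of its annotated exon bases, 69.8% overlap Nr2c2, a nuclear receptor gene on the opposite strand. Nr2c2 had 14.5 and 12.5 RPKM in the wild-type and 7.23 and 6.76 RPKM in the null libraries, with a log2 difference of −0.86 (limma adjusted p = 0.297). The library kit does not mark strand, so reads of the pair cannot be told apart.

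The other small subunit genes with the smallest p in this direction overlapped between genotypes. Mrps31 had 11.5 and 17.6 RPKM in the wild-type and 9.95 and 12.8 RPKM in the null libraries (log2 difference −0.31, limma adjusted p = 0.71). Mrps18c had a log2 difference of −0.22 (limma adjusted p = 0.798). Mrps24, a homologue of bacterial S3 at the entry of the message channel, had 33.8 and 40.0 RPKM in the wild-type and 28.7 and 36.6 RPKM in the null libraries (log2 difference −0.18, limma adjusted p = 0.82).

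Large subunit genes in the lower direction also overlapped without exception among the 4 with the smallest p. Mrpl57 had 24.8 and 31.7 RPKM in the wild-type and 20.1 and 26.2 RPKM in the null libraries (log2 difference −0.28, limma adjusted p = 0.716). Mrpl37 had 39.1 and 46.4 RPKM in the wild-type and 30.7 and 40.5 RPKM in the null libraries (log2 difference −0.26, limma adjusted p = 0.725). Each of the pair has no bacterial counterpart. Mrpl41 and Mrpl43 each had a log2 difference of −0.24 (limma adjusted p = 0.75 and 0.781), Mrpl43 with 51.4 and 64.7 RPKM in the wild-type and 40.0 and 59.7 RPKM in the null libraries.

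A few more members were described whatever their values, for their fold or their place in the ribosome. Mrpl44, which has a ribonuclease III fold, had 34.1 and 40.9 RPKM in the wild-type and 37.6 and 39.8 RPKM in the null libraries, a log2 difference of 0.05. Mrps27, a pentatricopeptide repeat protein that binds RNA, had 19.6 and 19.3 RPKM in the wild-type and 18.7 and 25.6 RPKM in the null libraries, a log2 difference of 0.16. Mrps30, placed in the large subunit by structures, had 29.8 and 36.7 RPKM in the wild-type and 23.9 and 40.6 RPKM in the null libraries, a log2 difference of −0.08. In each case the genotypes overlapped.

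**Figure D3:**
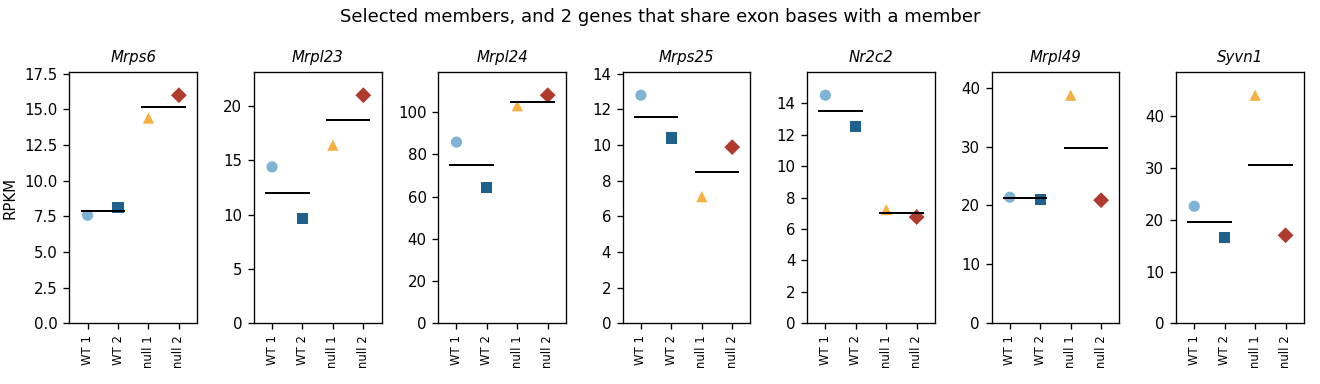
RPKM in each library (linear axes from 0, bars at the genotype means) for Mrps6, Mrpl23, Mrpl24, Mrps25 and Mrpl49, and for Nr2c2 and Syvn1, which share exon bases with Mrps25 and Mrpl49. Mrps6 separates the genotypes at 7.58 and 8.13 against 14.4 and 16.0 RPKM, whereas Mrpl49 and Syvn1 are high only in B7-H4-null replicate 1.

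Large and small subunit genes had close median levels and median differences. The median member had 31.3 RPKM in the large subunit and 34.8 RPKM in the small. Summed RPKM of the large subunit was 1947 and 2203 in the wild-type and 1982 and 2628 in the null libraries, means of 2075 ± 181 and 2305 ± 457 (SD, n = 2). The small subunit summed to 963.2 and 1085 RPKM in wild type and to 900 and 1209 RPKM in B7-H4-null, means of 1024 ± 86.1 and 1054 ± 218. The ratio of means between genotypes was 1.11 for the large and 1.03 for the small subunit, in both cases less than the gap between the B7-H4-null replicates. Median log2 differences were 0.12 and 0.06, with 30 of 49 and 15 of 29 genes above 0. The libraries did not overlap in the higher direction for 11 and 5 genes (22.4% and 17.2%, against 16.0% of all tested genes).

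The mean RPKM of large over small subunit genes was 1.2 in both wild-type libraries and 1.30 and 1.29 in B7-H4-null. This ratio did not overlap between genotypes, and its difference of 0.096 exceeded the spread between replicates, but with 2 libraries a group it was given no test, and it was 0.047 after quantile normalization. It was smaller without Mrpl33, a choice made after seeing the data, when the ratio was 1.05 and 1.06 in the wild-type and 1.12 and 1.13 in the null libraries. The ratio of medians did not share the direction, at 1.04 and 0.975 in the wild-type and 1.01 and 0.89 in the null libraries. With subunits assigned by structure, so that Mrps30 and Mrps18a count as large and Mrps36 as neither, the ratio of means was 1.15 and 1.16 in the wild-type and 1.25 and 1.24 in the null libraries. The ratio of medians was then 1.0 and 1.02 against 0.914 and 0.87. Median log2 differences by structure were 0.11 for 51 large and 0.03 for 26 small subunit genes.

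By origin, the 46 members with a bacterial counterpart had a median log2 difference of 0.12, and the 31 counted as particular to mitochondria one of 0.03. Mrps18a and Mrps18b, relatives of S18 beside Mrps18c, were counted with the latter, and Mrps36 with neither. The libraries did not overlap in the higher direction for 8 members of each set (17.4% and 25.8%, against 16.0% of all tested genes) and in the lower for 0 and 1 (against 28.0%). Levels differed a little, with medians of 35.9 RPKM for the members of bacterial descent and 29.7 RPKM for the others. Whether the sets differ was not tested.

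Replicates of the null genotype differed across nearly all of these genes. B7-H4-null replicate 2 exceeded B7-H4-null replicate 1 for 76 of the 78 members, against 61.2% of all tested genes. It was the highest of the 4 libraries for 55 members (70.5%, against 26.4% of all tested genes). B7-H4-null replicate 1 was the lowest for 40 of the 78 members, against 4726 of the 12107 tested genes. The ratio of replicate 2 to replicate 1 had a median of 1.36 and reached 2.04 for Mrpl12, and 19 members were at 1.5 or more. Oxidative phosphorylation genes had the same order of null replicates for 70 of 74 (94.6%) and null replicate 2 highest for 66.2%, so the gap is not particular to the members. After median-ratio scaling the order still held for 71 of the 78 members, against 50.8% of all tested genes, and after quantile normalization for 70, against 53.9%. The wild-type replicates were closer, with a median ratio of 1.13 of replicate 2 to replicate 1. Of the 78 members, 56 were higher in wild type replicate 2, against 6478 of the 12107 tested genes.

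This gap exceeded the genotype difference for most members. On log2(RPKM + 1), the B7-H4-null replicates were further apart than the genotype means for 65 of the 78 members (83.3%), against 54.5% of all tested genes. Mrpl12 shows it plainly, with means of 96.2 ± 12.1 RPKM in wild type and 121 ± 58.7 RPKM in B7-H4-null and a log2 difference of 0.25 ± 0.374 (SE, limma adjusted p = 0.823). Without B7-H4-null replicate 1 this became 0.76, and without replicate 2 it became −0.26. The exceptions to the replicate order were Mrpl39, at 15.7 and 15.2 RPKM in the null pair, and Mrpl49, at 38.7 and 20.9 RPKM, both named for this after their values were seen. B7-H4-null replicate 1 was also the library with the highest sum of stress genes, and the part of that in this gap was not tested.

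**Figure D4:**
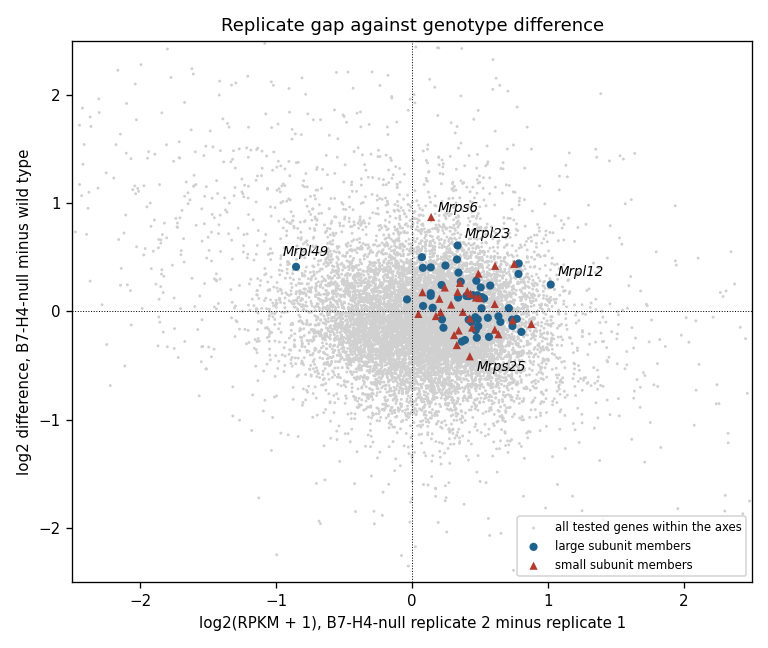
Each point is a gene: the x axis is B7-H4-null replicate 2 minus replicate 1 and the y axis is the genotype difference, both on log2(RPKM + 1), with all tested genes that fall within the axes in grey. Large (circles) and small subunit members (triangles) lie right of 0 for 76 of 78 genes and on both sides of 0 in height. The B7-H4-null libraries enter both axes, so no correlation is given.

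Summed levels were also set beside those of oxidative phosphorylation and of the cytosolic ribosome. The 78 members summed to 2911 and 3288 RPKM in wild type and to 2881 and 3837 RPKM in B7-H4-null. The 74 nuclear oxidative phosphorylation genes summed to 9809 and 11850 RPKM in wild type and to 9821 and 12700 RPKM in B7-H4-null, and in both groups null replicate 2 was highest and wild type replicate 2 next. Members were 29.7% and 27.7% of that sum in wild type and 29.3% and 30.2% in B7-H4-null, so the genotypes overlapped. The 79 cytosolic ribosomal protein genes summed to 26630 and 33770 RPKM in wild type and to 35610 and 40530 RPKM in B7-H4-null, with the null pair highest. As a percentage of this sum, members were 10.9% and 9.74% in wild type and 8.09% and 9.47% in B7-H4-null, means of 10.3 ± 0.845 and 8.78 ± 0.974 (SD, n = 2), without overlap. Mean levels in the cytosolic list ran from 6.97 to 3040 RPKM, a 437-fold range. Why some of its genes were low was not tested, so the sum may be too small. In the cytosolic list 77 of 79 genes were above 0 and 58 did not overlap in the higher direction (73.4%, against 20.5% of the mitochondrial members and 16.0% of all tested genes), although none of them was called by limma, with 5 at an unadjusted p under 0.05. After quantile normalization the shares without overlap were 50.6% for the cytosolic list and 32.1% for the members, and after median-ratio scaling 94.9% and 42.3%. With 2 libraries a group these shares were given no test.

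**Figure D5:**
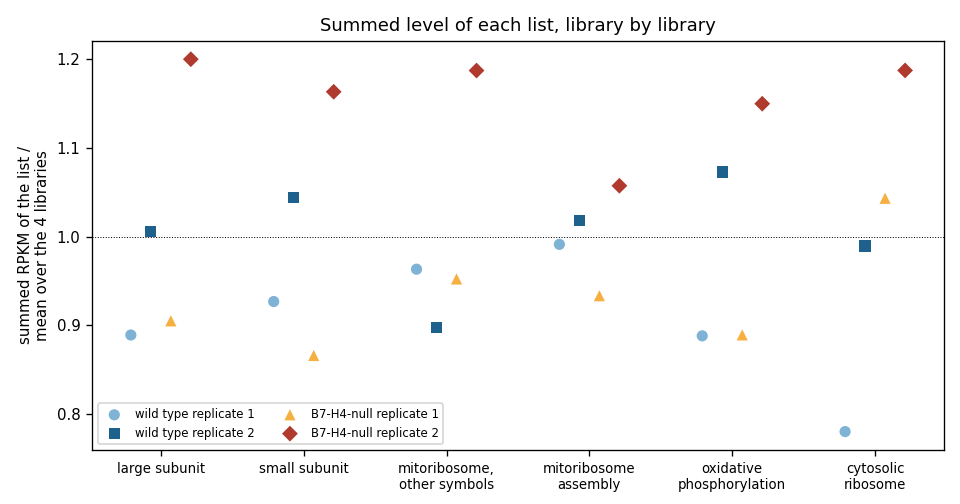
Summed RPKM of each gene list in each library, divided by the list's mean over the 4 libraries, for the large and small subunit, mitochondrial ribosomal proteins with other symbols, assembly factors, oxidative phosphorylation and the cytosolic ribosome. B7-H4-null replicate 2 is the highest point in every list, and only in the cytosolic ribosome does B7-H4-null replicate 1 also lie above both wild-type libraries.

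Shared exons limit what can be said of single members, because the kit marks no strand and how reads of shared bases were assigned is unknown. By the GENCODE annotation of GRCm38, 33 of the 78 members share exon bases with another gene and 23 with a protein-coding gene. The same share over all tested genes was not counted. Mrps34 overlaps Mapk8ip3 on the opposite strand over 63.4% of its exon bases and Nme3 over 37.0%. Mrpl24 overlaps Rrnad1 over 26.3%, and Mrpl46 and Mrps11, a large and a small subunit gene on opposite strands, share 173 bases. These percentages are of all annotated exon bases, 2064 for Mrps34 and 2255 for Mrpl24, against counted lengths of 899 and 949 bases. Shared bases can therefore lie outside what was counted. Mrpl49, high only in B7-H4-null replicate 1, shares 91 bases (4.9%) with Syvn1, a ubiquitin ligase gene on the opposite strand. Syvn1 had 22.6 and 16.5 RPKM in the wild-type and 44.0 and 17.0 RPKM in the null libraries, so both genes were high in the same library.

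None of the genes listed for their work with the mitochondrial ribosome was called by limma. At an unadjusted p under 0.05, the ribosomal proteins with other symbols held 0, the translation factors 1 higher and 0 lower, the assembly genes 2 higher and 1 lower, and the transcription and RNA handling genes 1 higher and 1 lower, against 5.05% and 7.20% of all tested genes. The higher ones include Mettl15 and Ppargc1b, which passed the filter only through the null libraries. Of the 5 ribosomal proteins with other symbols, Gadd45gip1, a large subunit protein, had 37.0 and 26.4 RPKM in the wild-type and 46.5 and 46.7 RPKM in the null libraries (log2 difference 0.56, limma adjusted p = 0.465). Ptcd3, of the small subunit, had 17.0 and 9.66 RPKM in the wild-type and 20.5 and 19.2 RPKM in the null libraries (log2 difference 0.59, limma adjusted p = 0.509). Dap3, a GTP-binding protein of the small subunit, was nearly level, at 21.0 and 20.6 RPKM in the wild-type and 20.2 and 20.5 RPKM in the null libraries. Unlike the others named from this list, Dap3 was not chosen by its p.

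Of 14 translation factors, 8 were above 0 and 6 below, and the libraries did not overlap for 5 in the higher direction (35.7%, against 16.0% of all tested genes) and 2 in the lower (14.3%, against 28.0%). Mrrf, the factor that recycles ribosomes after termination, had 2.41 and 2.28 RPKM in the wild-type and 3.68 and 5.71 RPKM in the null libraries (log2 difference 0.74, limma adjusted p = 0.373). Tufm, the elongation factor that brings aminoacyl-tRNA, had 6.44 and 5.27 RPKM in the wild-type and 8.01 and 7.65 RPKM in the null libraries (log2 difference 0.37, limma adjusted p = 0.597). Guf1 and Gfm2, a back-translocation factor and a recycling factor, had log2 differences of 0.36 and 0.38 (limma adjusted p = 0.603 and 0.626).

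The 24 assembly and ribosomal RNA modification genes split evenly, 12 above 0 and 12 below. The libraries did not overlap for 4 in the higher direction (16.7%) and 5 in the lower (20.8%), against 16.0% and 28.0% of all tested genes. Tfb1m, which methylates the small ribosomal RNA, had 5.76 and 4.75 RPKM in the wild-type and 9.15 and 11.7 RPKM in the null libraries (log2 difference 0.86, limma adjusted p = 0.319). Mrm2, a methyltransferase of the large ribosomal RNA, had 6.83 and 5.44 RPKM in the wild-type and 3.75 and 2.69 RPKM in the null libraries (log2 difference −0.76, limma adjusted p = 0.354). Neither passed, and the ribosomal RNAs themselves were not analysed here. Mettl15, another methyltransferase of the small ribosomal RNA, had 0.678 and 0.213 RPKM in the wild-type and 1.46 and 1.47 RPKM in the null libraries (log2 difference 0.79, limma adjusted p = 0.369). Mettl15 passed the filter of 1 RPKM only through the null libraries, so its p is no support for a difference. Eral1, a chaperone of the small ribosomal RNA, had 23.6 and 21.7 RPKM against 17.0 and 15.9 RPKM (log2 difference −0.44, limma adjusted p = 0.517).

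Among 20 tested genes of mitochondrial transcription and RNA handling, 8 were above 0 (40%, against 41.5% of all tested genes) and 12 below. Those without overlap, 4 higher (20%) and 5 lower (25%), were near the 16.0% and 28.0% of all tested genes. Ppargc1b, a coactivator of mitochondrial gene programs, had 0.512 and 0.385 RPKM in the wild-type and 2.44 and 3.04 RPKM in the null libraries (log2 difference 1.36, limma adjusted p = 0.178). It passed the filter of 1 RPKM only through the null libraries, so its p is no support for a difference. Fastkd5, which matures mitochondrial messages, had 4.27 and 3.47 RPKM in the wild-type and 1.81 and 2.13 RPKM in the null libraries (log2 difference −0.71, limma adjusted p = 0.363). Supv3l1, a mitochondrial RNA helicase, had 14.9 and 7.83 RPKM in the wild-type and 17.4 and 17.7 RPKM in the null libraries (log2 difference 0.64, limma adjusted p = 0.491).

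The genes of the 3 factors whose motifs were searched in the start windows were below 0. Nrf1 had 14.9 and 22.5 RPKM in the wild-type and 10.5 and 14 RPKM in the null libraries (log2 difference −0.56, limma adjusted p = 0.51). Gabpa, the DNA-binding part of GABP, had 20.1 and 24.9 RPKM against 15.8 and 18.8 RPKM (log2 difference −0.35, limma adjusted p = 0.62). Yy1 had 38.1 and 51.3 RPKM in the wild-type and 37.0 and 40.5 RPKM in the null libraries (log2 difference −0.19, limma adjusted p = 0.809). None passed the test, and Gabpa and Yy1 were named after their values were seen. The messages of the mitochondrial genome itself were not analysed here.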

How the data were processed

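RNA of 4 sorted LSC samples was sequenced after the Illumina TruSeq RNA version 2 preparation on a HiSeq2500, per the labels' protocols. The submitters' processing notes name TopHat2 2.0.12 and GRCm38. Details of read counting were not given in the sources used here. The authors deposited 1 table of RPKM values for 27179 Entrez gene IDs, a unit taken from the values, and 25275 IDs had a symbol in the RefSeq gene table. Whole reads were recovered from the steps between values for 14606 of the 14608 genes above 0 in every library, within 0.003 read or 3e-07 of the reads, and summed to 99.6% to 99.8% of the library totals. For a gene 1 kb long, 1 read corresponds to 0.0925 to 0.1062 RPKM.

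Genes at 1 RPKM in at least 2 libraries were tested with limma 3.58.1 in R 4.3.3 on log2(RPKM + 1), which understates changes of low genes, with genotype alone in the model, a mean-variance trend in the empirical Bayes step, two-sided tests and Benjamini-Hochberg adjustment over all 12107 genes at 0.05. The script was tested on simulated data. Alternatives were a pseudocount of 0.1, no filter, a filter at 5 RPKM, median-ratio scaling, quantile normalization, no trend, a replicate block, voom on recovered reads, each library left out, and subunits assigned by structure. Per subunit, the members named are the 4 highest and 3 lowest in level and the 4 with the smallest p in each direction, plus 9 chosen for their biology, and up to 4 genes of each pathway list by p. Members and lists were chosen with earlier results of these data known. Part of the marker lists is not reported here. Start windows and coordinates come from RefSeq on GRCm38.p6 and shared exons from GENCODE.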

Additional observations from a re-analysis of the deposited data

How the results depend on the processing

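Limma called 0 members under every alternative, with smallest adjusted p values of 0.149 to 0.631. With a library left out, 1 genotype has a lone library that is assumed to vary like the other genotype, so 0 calls there say nothing of stability. Over all tested genes, 5 higher and 7 lower calls became 0 and 0 when genes at low values were kept, and ranged from 0 to 36 and from 0 to 20 when 1 library was left out. With the replicate block, 12 genes were called higher, 9 lower and 0 members. Same-numbered libraries deviated together with a correlation of 0.247 over all tested genes and 0.136 over the members, but with 2 pairs they share only a number.

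Leaving out 1 library moved the median log2 difference between −0.09 and 0.29 for the large and between −0.11 and 0.22 for the small subunit. Over all tested genes it lay between −0.14 and −0.03. Members whose libraries did not overlap in the higher direction went from 11 to 21 (large) and from 5 to 12 (small) after median-ratio scaling, the latter to 11 after quantile normalization. In the lower direction quantile normalization gave 1 large and 0 small subunit genes. With a library left out these counts ranged from 12 to 37 (large, higher), 0 to 24 (large, lower), 5 to 19 (small, higher) and 1 to 16 (small, lower), where fewer libraries overlap less by construction. The subunit ratio difference of 0.096 was 0.047 after quantile normalization, 0.070 without Mrpl33, and 0.07 to 0.104 with a library left out. Apart from the last, the cause of these shifts was not tested.

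Of 371 values of the 31 named members under the alternatives, 342 kept their direction and 29 reversed, 21 of them when a library was left out. After median-ratio scaling the log2 difference was 0.03 for Mrpl20, 0.04 for Mrpl35, 0.02 for Mrps30, 0.07 for Mrps33 and 0.06 for Mrps9. After quantile normalization it was −0.02 for Mrpl33, 0.04 for Mrpl35 and 0.09 for Mrps33. Leave-one-out ranges that crossed 0 were −0.07 to 0.13 for Mrpl1, −0.26 to 0.76 for Mrpl12, −0.32 to 0.18 for Mrpl20, −0.06 to 0.34 for Mrpl30, −0.29 to 0.18 for Mrpl35, −0.52 to 0.05 for Mrpl43, −0.08 to 0.18 for Mrpl44, −0.08 to 0.21 for Mrps18a, −0.48 to 0.04 for Mrps18c, −0.47 to 0.14 for Mrps21, −0.19 to 0.18 for Mrps26, −0.05 to 0.38 for Mrps27, −0.45 to 0.29 for Mrps30, −0.16 to 0.12 for Mrps33 and −0.3 to 0.21 for Mrps9. For Mrps36, with 13 to 21 reads, depth limits any comparison.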
